A study of Mus musculus with 4 samples.

Results

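Plasmacytoid dendritic cells (pDC) were taken from a single-cell RNA table of mouse liver tumours by a rule on 12 genes. A cell was a member when it had at least 1 unique molecular identifier (UMI, a tag that marks 1 captured RNA molecule) of Siglech and of at least 2 of Ccr9, Cox6a2, Klk1, Cd209d, Spib, Runx2 and Cd300c, and none of the T cell genes Cd3e and Cd3g, the B cell gene Ms4a1 and the Kupffer cell gene Clec4f. The rule took 874 of 24802 cells. The members were thus chosen by measured values of these 12 genes, so those values are given below as a description and support nothing.

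The study compared mice of genotype Miz1_delta_hep, in which Miz1 is deleted in hepatocytes, with Miz1F/F controls that carry the floxed gene. Miz1 is the protein of the gene Zbtb17. Each genotype had 2 samples of hepatocellular carcinoma tissue on the C57BL/6 background at 5 months of age. All 4 had received diethylnitrosamine (DEN), a liver carcinogen, at 25 mg/kg in week 2 of life and then weekly carbon tetrachloride (CCl4), which damages hepatocytes, at 0.5 ml/kg, so there were no untreated livers. The labels do not name the Cre driver of the hepatocyte deletion. The deletion is described for hepatocytes, and whether the gene was intact in pDC was not tested. Cells were captured with the 10x 3′ chemistry. Cell names ended in 1 of 4 suffixes, called barcode sets 1 to 4 here. No label tied a suffix to a sample, so the genotypes were not compared, and a difference between sets can be one of genotype, animal, cell recovery or depth, which cannot be told apart.

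Plasmacytoid dendritic cells are round, secretory cells of the blood and lymphoid organs that sense viral nucleic acids in endosomes through Tlr7 and Tlr9 and can release large amounts of type I interferon. They depend on the E protein Tcf4, which holds back the programme of conventional dendritic cells (cDC) driven by Id2 and Batf3. Compared with conventional dendritic cells they present antigen weakly at rest, and many of them carry rearranged immunoglobulin genes and other traces of the lymphoid lineage.

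The windows before the start sites of 3 of the rule's genes are shown because these genes defined the cells together and Tcf4, which was higher in these cells than in each class compared, is a protein that binds E-boxes. Each window holds the 250 bases before the start in RefSeq (build GRCm38.p6), 5′ to 3′ on the gene's strand, with every E-box (CANNTG, which reads the same on both strands) in capitals. Siglech (chr7:55767934-55768183, plus strand) encodes a sialic acid-binding receptor of mouse pDC, Ccr9 (chr9:123766961-123767210, plus strand) a receptor for the gut chemokine Ccl25, and Klk1 (chr7:44225110-44225359, plus strand) a kallikrein protease.
Siglech: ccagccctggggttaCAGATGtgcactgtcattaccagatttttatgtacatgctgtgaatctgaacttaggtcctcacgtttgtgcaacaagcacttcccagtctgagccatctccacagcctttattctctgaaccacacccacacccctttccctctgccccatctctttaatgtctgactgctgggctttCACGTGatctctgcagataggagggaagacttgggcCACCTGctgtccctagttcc
Ccr9: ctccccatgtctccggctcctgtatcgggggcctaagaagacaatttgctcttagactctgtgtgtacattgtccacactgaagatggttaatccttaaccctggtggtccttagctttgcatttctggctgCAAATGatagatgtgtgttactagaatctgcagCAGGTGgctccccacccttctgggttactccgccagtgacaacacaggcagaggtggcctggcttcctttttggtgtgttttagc
Klk1: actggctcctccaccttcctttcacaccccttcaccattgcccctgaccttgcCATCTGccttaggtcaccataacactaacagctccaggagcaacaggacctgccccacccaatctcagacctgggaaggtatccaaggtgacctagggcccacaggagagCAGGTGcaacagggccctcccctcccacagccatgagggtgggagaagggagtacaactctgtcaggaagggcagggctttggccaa
An E-box was found in all 7 of the rule's 8 pDC genes that had a window, and in 59.6% of the 12926 windows of measured genes. Its form CACCTG, searched on both strands and contained in CANNTG, was found in 4 of the 7 windows (Siglech, Ccr9, Klk1 and Cd300c) and in 16.1% of all windows. The 3 windows shown are thus all among those with this form, and Cd209d, Spib and Runx2, not shown, had 0 matches of it. The form CAGCTG was found in 0 of the 7 and in 12.1% of all. GAGGAAGT, a core read by Spi-B and PU.1, was found on either strand in 0 of the 7 and in 2.61% of all. These are matches of letters in short windows and not measured binding sites, and whether Tcf4 acts at them was not tested.

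In GENCODE's annotation of GRCm38, Siglech (ENSMUSG00000051504.18) lies on chromosome 7 from 55768178 to 55778925, and Klk1 (ENSMUSG00000063903.5) on the same chromosome from 44225360 to 44229618. Spib (ENSMUSG00000008193.13), the gene of the factor Spi-B, lies on chromosome 7 from 44525993 to 44532071, and Cox6a2 (ENSMUSG00000030785.8), a subunit of cytochrome c oxidase otherwise known from muscle, from 128205435 to 128206387. Ccr9 (ENSMUSG00000029530.16) lies on chromosome 9 from 123678439 to 123784330, and its RefSeq window shown above lies inside this span. All 5 are protein-coding genes.

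The members numbered 71, 200, 290 and 313 in barcode sets 1 to 4. They made up 2.76% of the cells of set 1 (95% Clopper-Pearson interval 2.16% to 3.47%), 3.21% of set 2 (2.79% to 3.68%), 6.01% of set 3 (5.36% to 6.72%) and 2.80% of set 4 (2.50% to 3.12%). Set 3 had the highest share, and the intervals of the other 3 sets overlapped. The intervals cover counting error only. Depth differed between the sets: the median pDC had 5162, 1523, 1456 and 3652 UMIs in sets 1 to 4, and the members summed to 361053, 329176, 459052 and 1214219 UMIs. When each cell was thinned at random to 1000 UMIs and shallower cells were left out, 660 of 16914 cells met the rule, at 1.96%, 5.54%, 9.24% and 2.46% in sets 1 to 4. Among the same cells before thinning the shares were 3.09%, 6.78%, 10.2% and 3.25%. In both, set 3 was highest and set 2 stood above sets 1 and 4. The rise of set 2 against its share of all cells thus came with leaving out shallow cells, since 2832 of its 6224 cells had 1000 UMIs. Of the members, 3, 8, 38 and 7 in sets 1 to 4 had fewer than 1000 UMIs.

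**Figure D1:**
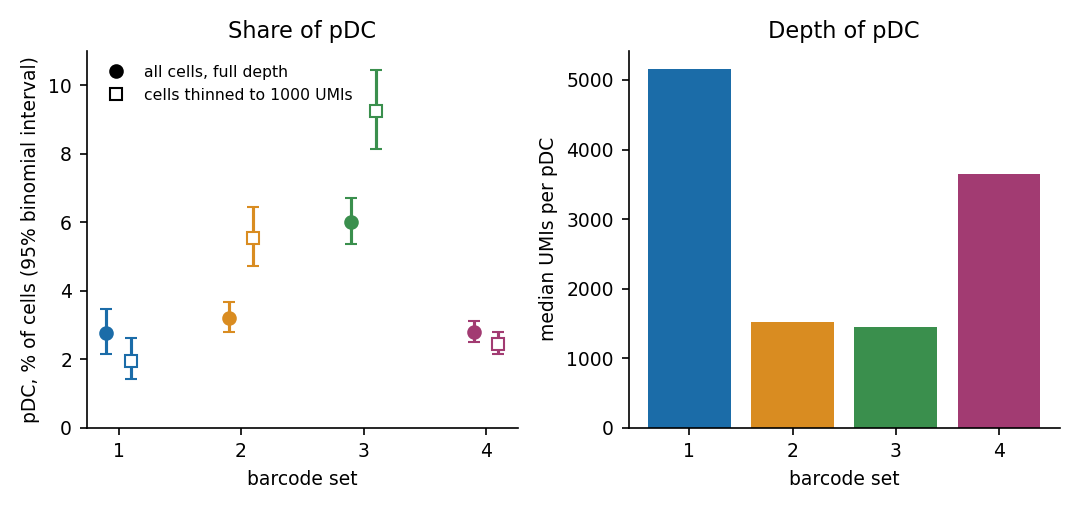
Left, pDC as a percentage of the cells of each barcode set, at full depth (filled circles) and with each cell thinned to 1000 UMIs (open squares), with 95% binomial intervals. Right, the median UMIs per pDC in each set. Set 3 holds the highest share in both, 6.01% and 9.24%, and sets 2 and 3 the shallowest pDC.

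The cells near the rule's threshold were compared with the members in genes that the rule did not use. Bst2, a surface protein of pDC that interferon also induces, stood at 2675 CPM (UMIs of the gene per 1000000 UMIs of all genes, summed over the cells) in the 92 members with just 2 of the 7 further genes. It stood at 1401 CPM in the 47 cells just outside with 1 of the 7, and at 410 CPM in the 88 cells with Siglech alone. Irf8, a factor that pDC and cDC1 share, stood at 1281, 569 and 244 CPM in the same 3 groups. These levels are pooled over sets that differ in depth and in Bst2, and the gap at the threshold differed between sets. In set 4, Bst2 stood at 2403 CPM just inside (22 cells) and 725 CPM just outside (15 cells). In set 2 the values were 2922 (25 cells) and 2440 CPM (7 cells), and in set 3 2517 (42 cells) and 2297 CPM (21 cells). In set 1 they were 6580 (3 cells) and 1052 CPM (4 cells). The gap was thus wide in sets 1 and 4 and narrow in sets 2 and 3, on few cells. The pooled groups also differ in their make-up by set. The cells with Siglech alone were lowest in every set, at 159 to 666 CPM. The 88 cells with Siglech alone had 3401 CPM of Cst3, a gene high in conventional dendritic cells and macrophages, and the members 1206 CPM. A further 73 cells met the positive part of the rule and carried a UMI of an excluding gene: 27 of Clec4f, 25 of Ms4a1, 21 of Cd3g and 13 of Cd3e.

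**Figure D2:**
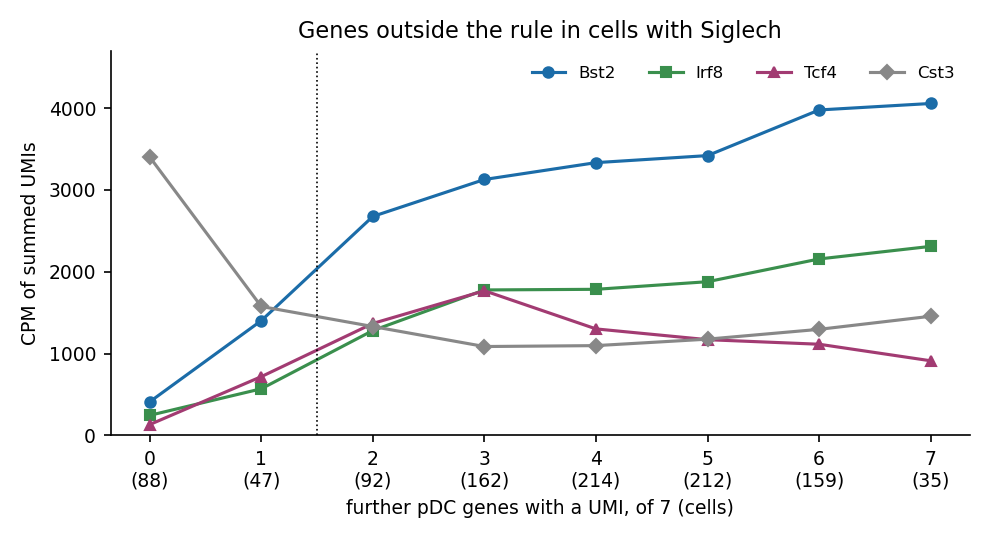
CPM of 4 genes outside the rule in cells with Siglech and no excluding gene, by the number of the 7 further genes with a UMI (number of cells in brackets). The dotted line marks the rule's threshold. Bst2 goes from 410 CPM at 0 to 2675 CPM at 2 and 4056 CPM at 7, and Cst3 is highest, at 3401 CPM, in cells with none of the 7. Values are pooled over barcode sets, and the groups differ in median UMIs, 1494.5 at 2 and 4208 at 7.

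The label was checked against its markers. Siglech stood at 1975, 1935, 2333 and 1459 CPM in the pDC of sets 1 to 4, Ccr9 at 920, 1911, 1860 and 804 CPM, and Cox6a2 at 1136, 805, 1133 and 1484 CPM. Klk1 stood at 1238, 413, 521 and 753 CPM. These levels are set by the rule. Outside the rule, the pDC genes Bst2 and Tcf4 had a UMI in 858 and 808 of the 874 cells. The 12 T cell and natural killer cell markers, of which the rule holds Cd3e and Cd3g at 0, summed to 16.6 to 33.4 CPM in the pDC of the 4 sets. The B cell gene Cd79a had 74 UMIs in all members.

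The comparison classes were cDC1 (119 cells with Xcr1 and at least 2 of 6 further genes), which take up dead cells and cross-present antigen, cDC2 (399 cells with Cd209a and at least 1 of 5 further genes), and B cells (3138 cells with Ms4a1 and Cd79a). Levels were compared within each barcode set, as the log2 ratio of CPM plus a pseudocount of 10 CPM. A gene was called higher or lower when the ratio reached 2-fold in every set. Set 1 held 11 cDC1 only, so the cDC1 comparison used sets 2 to 4. The sets are not known replicates of a group, and no p-value was computed. Against cDC1, 577 of 5907 genes were called higher (9.77%) and 215 lower (3.64%), 13.4% in either direction. Against cDC2, 363 of 5718 were higher (6.35%) and 254 lower (4.44%), 10.8% in either direction. Against B cells 442 of 5727 were higher (7.72%) and 124 lower (2.17%), 9.88% in either direction. Against plasma cells 700 of 6145 were higher (11.4%) and 354 lower (5.76%), 17.2% in either direction. The cells taken as plasma cells held much hepatocyte RNA, so no gene of that comparison is named. Its counts depended on the plasma cell rule. A stricter rule gave 1574 higher and 101 lower, with 39 of the 354 lower genes shared. The median log2 ratio of all genes was above 0, at 0.37, 0.32 and 0.27. With this median set to 0 in every set the calls were 351 higher and 332 lower against cDC1, 216 and 361 against cDC2, and 309 and 208 against B cells. Rule genes of either class were left out of each comparison. No doublet caller was run. The 254 members with a UMI of any of 8 genes of other cells, among them Cd79a, Cd3d, Trac, S100a8, Csf1r, C1qa and Kdr, were treated as possible doublets and left out in an alternative. Genes higher than in all 3 classes numbered 191 of 5246 (3.64%), and genes lower than in all 3 numbered 11 (0.21%).

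**Figure D3:**
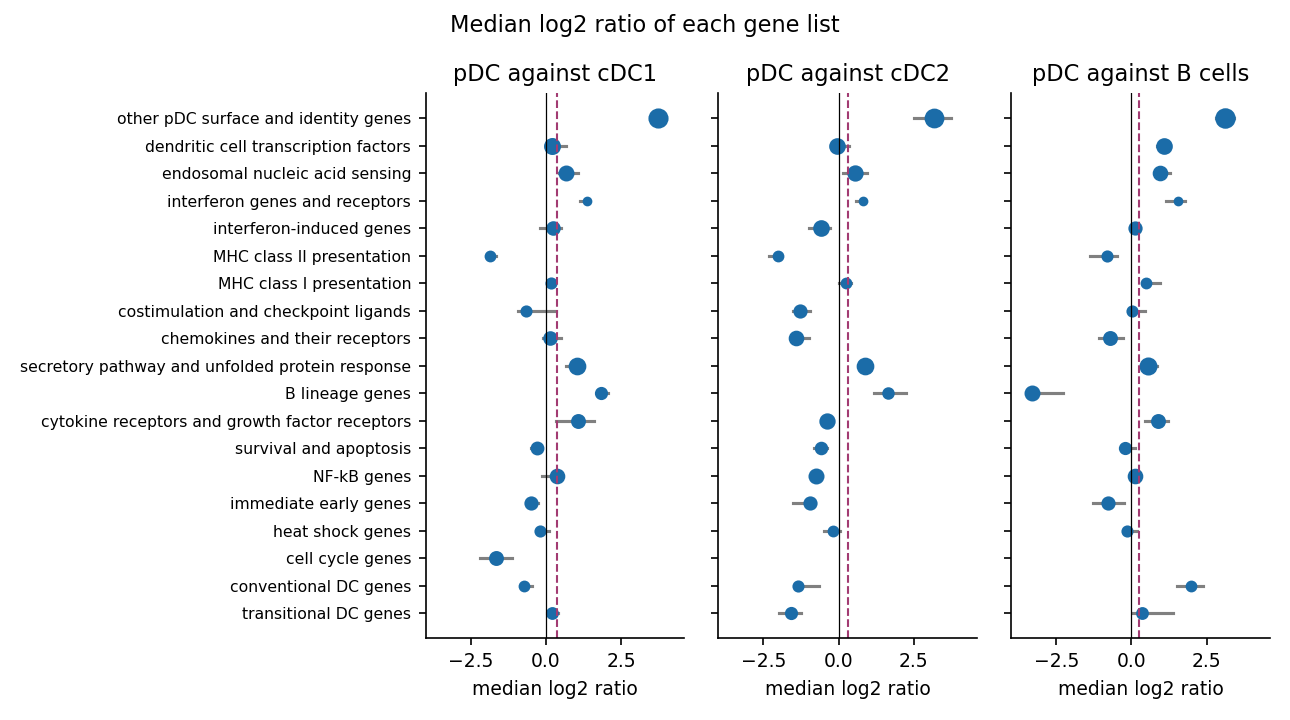
Median log2 ratio of each gene list in pDC against cDC1, cDC2 and B cells (dot, larger for more genes tested), with the range of the list's median over the barcode sets (grey line). The dashed line is the median of all genes tested in that comparison. The other pDC identity genes lie farthest to the right in all 3 panels, at 3.73, 3.16 and 3.11.

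The surface and identity genes of pDC outside the rule were higher in the members. Of those tested, 29 of 34 were called higher against cDC1 (9.77% of all genes). Against cDC2 30 of 33 were (6.35%), and against B cells 29 of 35 (7.72%). Of the rest, Cd2, an adhesion molecule, was lower than in B cells. The list had medians of 3.73, 3.16 and 3.11 on the log2 scale. It was drawn up from known pDC genes with results of these data in view, so its direction is not independent evidence. Bst2 stood at 5005, 2856, 2923 and 3411 CPM in the pDC of sets 1 to 4, at 105 to 243 CPM in cDC1, 209 to 368 CPM in cDC2 and 102 to 214 CPM in B cells. The summed level in pDC was above that of each class in every set compared, with median log2 ratios of 4.46, 3.44 and 4.46. After thinning to 1000 UMIs, Bst2 was seen in 94.6% of pDC (92.8% to 96.1%), 24.2% of cDC2 and 13.4% of B cells, and before thinning in 98.2%, 53.4% and 20.8%. Here and below, such shares are pooled over sets, which the classes fill differently. Set 4 gave 306 of 818 thinned pDC and 1844 of 2416 thinned B cells. Thinning left out 406 of 565 B cells of set 2 and 253 of 353 of set 3.

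Ly6c2, a surface protein shared with monocytes, stood at 3008, 1583, 1229 and 2113 CPM in pDC and at no more than 202 CPM in any set of the other 3 classes. Lair1, an inhibitory collagen receptor, stood at 543, 586, 688 and 486 CPM, with at most 48.5 CPM elsewhere. Atp1b1, a subunit of the sodium pump, stood at 360, 495, 471 and 423 CPM, with at most 39.0 CPM elsewhere. All 3 genes were higher than in each class in every set compared. Cathepsin L (Ctsl), the T cell-associated Cd7, the endocytic adaptor Pacsin1 and the inhibitory receptor Lag3 were also higher in all 3 comparisons. Lag3 stood at 391, 204, 220 and 212 CPM, and Cd4, a coreceptor that mouse pDC can carry, at 147, 149, 170 and 94.7 CPM. Ly6d, a marker of lymphoid progenitors, stood at 2969, 1352, 1316 and 2561 CPM. It was called higher against cDC1 and cDC2 and not against B cells, where the median log2 ratio was 0.61. Plac8, at 5539, 2889, 2496 and 3703 CPM, was higher in all 3 comparisons, but its calls against both conventional classes were lost with the median of all genes set to 0. Members of the Ly6 family are alike in sequence and their reads may be split.

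Further genes of the same list were called as well. Sla2, an adaptor that damps antigen receptor signals, stood at 271, 249, 176 and 209 CPM and had 0 UMIs in cDC1 and 3 UMIs in cDC2. Upb1, an enzyme of pyrimidine breakdown, stood at 388, 185, 176 and 326 CPM with at most 33.1 CPM elsewhere. Pltp, the phospholipid transfer protein, stood at 443, 325, 301 and 382 CPM and had 0 UMIs in cDC1. Each was called higher in all 3 comparisons. Rnase6, a secreted ribonuclease, stood at 1246, 483, 475 and 791 CPM, and Smim5, a small membrane protein, at 388, 94.2, 126 and 348 CPM, both higher in all 3 comparisons and highest in sets 1 and 4. P2ry14, a receptor for UDP-glucose, stood at 363, 310, 294 and 304 CPM. It was called in all 3 comparisons, but against cDC1, at a median log2 ratio of 1.09, not with the median of all genes set to 0. Cdh1, the gene of E-cadherin, stood at 33.2, 131, 142 and 45.3 CPM, with sets 2 and 3 above sets 1 and 4. Its call against cDC2 was lost in the same way.

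**Figure D4:**
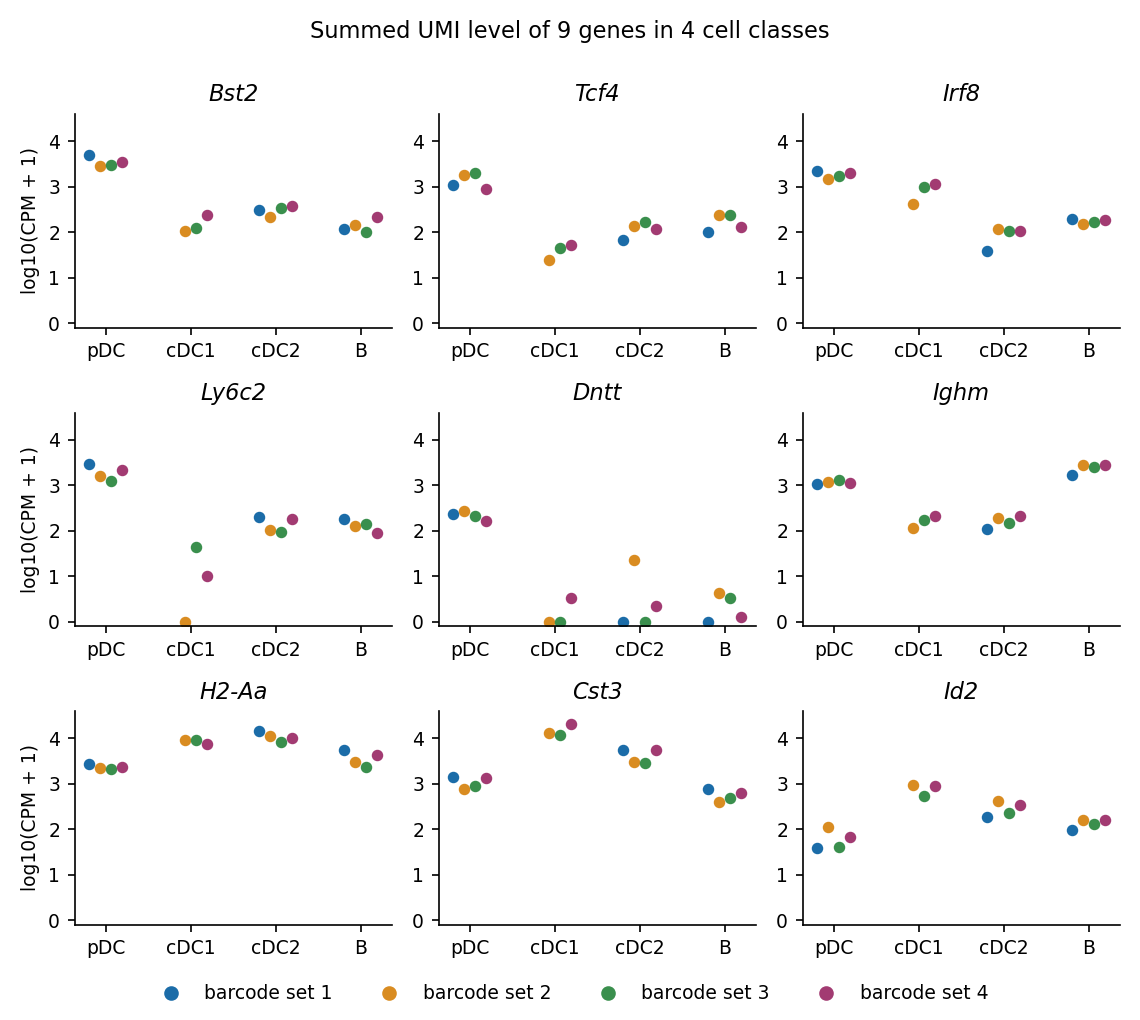
Level of 9 genes as log10(CPM + 1), from UMIs summed over the cells of each class in each barcode set (1 dot a set, with cDC1 of set 1 left out). Bst2, Tcf4, Ly6c2 and Dntt are highest in pDC in every set, and H2-Aa, Cst3 and Id2 are lower in pDC than in either conventional class.

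Among 26 transcription factors of dendritic cells, the members showed a mixed pattern. Against cDC1, 7 of 25 tested were higher and 4 lower (9.77% and 3.64% of all genes). The counts were 4 of 24 higher and 5 lower against cDC2 (6.35% and 4.44%). Against B cells 9 of 24 were higher and 1 lower (7.72% and 2.17%). The list's median was 0.21, -0.04 and 1.07, and with the median of all genes set to 0 the first turned to -0.21. Tcf4 stood at 1064, 1826, 1985 and 890 CPM in pDC, at 23.3 to 50.3 CPM in cDC1, 64.5 to 163 CPM in cDC2 and 99.8 to 241 CPM in B cells. It was thus above every class in every set, with median log2 ratios of 5.22, 3.58 and 2.93. Within pDC it was highest in sets 2 and 3, the shallower ones, and sets 2 and 3 were also the higher ones in B cells.

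Irf8 stood at 2163, 1507, 1714 and 1986 CPM in pDC. It was called higher than in cDC2 and B cells (median log2 ratios 4.02 and 3.32) and not than in cDC1 (0.80), where it stood at 420 to 1142 CPM. Bcl11a, a factor that pDC development needs, stood at 302, 261, 301 and 238 CPM and was higher in all 3 comparisons, but not against cDC2 with the median of all genes set to 0. Zeb2, a repressor that can hold back Id2, stood at 188, 185, 159 and 180 CPM and was higher than in cDC1 and B cells and not than in cDC2, where the median log2 ratio was 0.35. Runx3, of the same family as the rule's Runx2, was called higher against B cells alone. The genes of the conventional programme were low. Id2 stood at 38.8, 112, 39.2 and 65.9 CPM in pDC, at 538 to 945 CPM in cDC1 and 188 to 430 CPM in cDC2, with median log2 ratios of -3.48 and -2.11. Batf3, at 5.54 to 8.71 CPM (17 UMIs in all), and Spi1, the gene of PU.1, at 94.2, 72.9, 32.7 and 107 CPM, were likewise lower than in both conventional classes. Zbtb46, a gene of conventional dendritic cells, had 9 UMIs in all members.

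In the endosomal sensing list, 6 of 22 genes tested were higher and 2 lower against cDC1 (9.77% and 3.64% of all genes). Against cDC2 6 of 23 were higher and 2 lower (6.35% and 4.44%). Against B cells 8 of 21 were higher and 0 lower (7.72% and 2.17%). Tlr7, the receptor for single-stranded RNA, stood at 49.9, 69.9, 87.1 and 70.8 CPM in pDC. It had 0 UMIs in cDC1, which allows up to 3.79 CPM at 3 UMIs, and stood at 4.73 to 5.87 CPM in cDC2 and 1.63 to 9.55 CPM in B cells. It was called higher in all 3 comparisons, but against B cells not without the possible doublets. Tlr9, the receptor for unmethylated DNA, had 2 UMIs in all pDC, 1 in cDC2, 1 in B cells and 0 in cDC1, so at this depth no difference could be seen. Pld4, an endosomal exonuclease that trims single-stranded nucleic acid, stood at 931, 914, 980 and 878 CPM and was higher in all 3 comparisons. Unc93b1, the chaperone that carries these receptors to endosomes, stood at 626, 513, 558 and 550 CPM and was called against B cells alone. The endosomal ribonucleases Rnaset2a and Rnaset2b, near-identical copies whose reads may be split, stood at 244 to 583 and 316 to 744 CPM.

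Slc15a4, a transporter that pDC need for this signalling, stood at 58.2, 167, 146 and 72.5 CPM and was higher than in cDC1 and B cells, the second call being lost under 3 alternatives. Irf7, the factor that amplifies type I interferon, stood at 219, 63.8, 124 and 222 CPM in pDC and at 0 to 91.5 CPM in cDC1 of sets 2 to 4, 19.2 to 70.4 CPM in cDC2 and 11.4 to 40.9 CPM in B cells. It was called higher in all 3 comparisons, and against the 2 conventional classes not with the median of all genes set to 0. Of the interferon ligands, Ifnb1 had 2 UMIs and Ifng 3 UMIs in all members. Of the 26 interferon and receptor genes on the list, 19 were not among the 17813 genes measured, so no level can be given for them. Of the 7 measured, 1 had 0 UMIs in all members. Both chains of the type I interferon receptor were called higher in all 3 comparisons: Ifnar1 stood at 230, 240, 170 and 236 CPM and Ifnar2 at 296, 276, 253 and 258 CPM. Against cDC2, where Ifnar2 stood at 93.9 to 121 CPM, both calls were lost with the median of all genes set to 0. Ifngr1, a chain of the interferon gamma receptor, was lower than in both conventional classes, with median log2 ratios of -2.20 and -1.88.

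Interferon-induced genes were called in both directions. Against cDC1, 3 of 18 tested were higher and 1 lower (13.4% of all genes in either direction). Against cDC2, 3 of 24 were higher and 5 lower (10.8% of all genes), and against B cells 3 of 17 were higher and 0 lower (9.88%). Bst2 and Irf7 were among the 3 higher genes each time. The list's median was 0.22, -0.60 and 0.11, and the first and last turned to -0.08 and -0.11 with the median of all genes set to 0. Ifi27l2a, a mitochondrial protein gene, stood at 1169, 483, 610 and 1196 CPM and was higher than in cDC1 alone. Ifitm3, a membrane protein that restricts virus entry, stood at 202, 143, 80.6 and 543 CPM in pDC and at 1388 to 4351 CPM in cDC2, a median log2 ratio of -3.78. Ifitm2 and Ifitm1, its close copies, and the chemokine gene Cxcl10 were also lower than in cDC2. Isg15, a ubiquitin-like protein, stood at 119, 66.8, 21.8 and 112 CPM and was called in no comparison.

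The genes of MHC class II presentation were lower in pDC than in conventional dendritic cells. Of 10 tested, 8 were lower against cDC1 and 9 against cDC2, and none was higher, with list medians of -1.84 and -2.02. Of all genes, 3.64% and 4.44% were lower in these comparisons. H2-Aa, the alpha chain of I-A, stood at 2700, 2193, 2174 and 2313 CPM in pDC, at 7499 to 9092 CPM in cDC1 of sets 2 to 4, 8520 to 14869 CPM in cDC2 and 2339 to 5602 CPM in B cells. The level in pDC was the lowest of the 4 classes in every set. Against B cells 2 of 11 were called lower, H2-DMb2 and H2-Ob (2.17% of all genes), and the list's median was -0.82. Cd74, the invariant chain, stood at 7539, 4250, 4337 and 9087 CPM in pDC and at 15703 to 35233 CPM in cDC2. Ciita, the master regulator of the class II genes, had 33 UMIs in all members. The class I list differed little. Against cDC1 1 of 11 was lower (Psmb9), where 3.64% of all genes were, and 0 of 10 were called against cDC2. Against B cells 1 of 10 was higher (Psmb8, not with the median of all genes set to 0), where 7.72% of all genes were. H2-Ab1 and H2-Eb1, the beta chains of I-A and I-E, stood at 1362 to 2279 and 835 to 1235 CPM in pDC and were lower than in both conventional classes.

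Several genes by which antigen-presenting cells stimulate T cells were low. Cd83, which stabilizes class II at the surface, stood at 41.5, 82.0, 28.3 and 58.5 CPM in pDC and at 389 to 909 CPM in cDC2. Cd86, a ligand of Cd28, had 21 UMIs in all members and Cd40 had 14. All 3 genes were lower than in cDC1, cDC2 and B cells in every set compared. Cd200, a ligand that restrains myeloid cells, stood at 96.9, 246, 261 and 141 CPM and was higher in all 3 comparisons, against B cells not with the median of all genes set to 0. Over the list, 2 of 17 were higher (Lag3 and Cd200) and 7 lower against cDC2 (6.35% and 4.44% of all genes). Il12a, a subunit of interleukin 12 and of interleukin 35, stood at 47.1, 6.08, 6.54 and 23.1 CPM and was not called.

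Genes of the NF-kB pathway and the immediate early genes were compared because the study's title names hepatocyte NF-kB. Against cDC2, 6 of 22 NF-kB genes were lower and 0 higher (list median -0.74). Of the immediate early genes 7 of 17 were lower and 0 higher (-0.94). Of all genes, 4.44% were lower and 6.35% higher against cDC2. Nfkbia, the inhibitor that NF-kB induces, stood at 363, 346, 237 and 258 CPM in pDC and at 1245 to 2077 CPM in cDC2. Rel, Tnfaip3, Nfkbiz, Traf1 and Map3k14 were the other lower genes against cDC2. Against cDC1 2 of 21 NF-kB genes were lower and 2 higher (3.64% and 9.77% of all genes). Against B cells 2 of 21 were lower and 0 higher (2.17% and 7.72%). The median of the NF-kB list was 0.37 and 0.11 there, and turned to -0.05 and -0.13 with the median of all genes set to 0. Junb, a subunit of AP-1, stood at 305, 355, 566 and 376 CPM in pDC and at 805 CPM or more in every set compared of the other 3 classes. Dusp1, a phosphatase that ends MAP kinase signals, stood at 77.6, 97.2, 109 and 108 CPM, and at 593 to 1149 CPM in cDC2. Early genes respond to tissue dissociation as well as to signals in the tissue, and the part of either was not tested. Mtdh, the gene of metadherin, a protein linked to NF-kB signalling, stood at 443, 301, 342 and 366 CPM in pDC, with median log2 ratios of 1.11, 0.92 and 0.68, and was not called. Zbtb17, the gene of Miz1, stood at 11.1, 24.3, 6.54 and 7.41 CPM, 24 UMIs in all.

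Of the secretory pathway, Xbp1, Ddit3 and Mzb1 were called higher against both conventional classes. Of 27 genes tested, 4 were higher against cDC1 and 9 against cDC2, with none lower and list medians of 1.03 and 0.87. Over all genes 9.77% and 6.35% were higher, so the share against cDC1 was near that of genes at large. With the median of all genes set to 0, the counts became 2 higher and 1 lower, and 2 higher and 0 lower. Against B cells 3 of 28 were higher and 1 lower (7.72% and 2.17% of all genes). Xbp1, the factor that expands the secretory pathway, stood at 463, 924, 765 and 482 CPM in pDC, at 50.9 to 152 CPM in cDC1 of sets 2 to 4, 76.3 to 115 CPM in cDC2 and at most 301 CPM in B cells. It was above all 3 classes in every set compared, and the call against B cells alone was lost with the median of all genes set to 0 or in cells with at least 500 genes. Sec61b, a subunit of the translocation channel, stood at 1540, 1896, 1791 and 1135 CPM and was called higher against B cells (not in cells with at least 500 genes), with median log2 ratios of 1.09 and 0.94 against the conventional classes. Mzb1, a chaperone of immunoglobulin assembly, stood at 216, 94.2, 272 and 249 CPM. In set 3, where plasma cell markers were highest, the top 15 cells held 68.0% of its UMIs, and without them the level there was 96.8 CPM. It had 1 UMI in cDC1 and 9 UMIs in cDC2, and its median log2 ratio to B cells was -1.35, which was not called.

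The pDC carried RNA of several B lineage genes and lacked others. Of the list, 9 of 14 were higher against cDC1 (9.77% of all genes) and 6 of 12 against cDC2 (6.35%). Against B cells 2 of 22 were higher and 13 lower (7.72% and 2.17%). Dntt, the terminal transferase that adds bases at immunoglobulin joints in progenitors, stood at 230, 264, 209 and 164 CPM in the pDC of sets 1 to 4. The other classes had 1 UMI in cDC1, 5 UMIs in cDC2 and 4 UMIs in B cells. No set of another class came above 22.0 CPM, and the median log2 ratios were 4.45, 4.21 and 4.27. The UMIs lay in 318 pDC, 36.4% of the members, and in 0.752% of cDC2 and 0.127% of B cells. After thinning to 1000 UMIs, Dntt was seen in 18.0% of 818 pDC (15.4% to 20.8%) and in 0 of 2416 B cells.

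Ighm, the constant region of the IgM heavy chain, stood at 1077, 1209, 1307 and 1138 CPM in pDC, at 117 to 213 CPM in cDC1 of sets 2 to 4, 106 to 208 CPM in cDC2 and 1663 to 2801 CPM in B cells. It was spread over 773 of the 874 members. The level was called higher than in both conventional classes (median log2 ratio 2.84 in each) and lay below that of B cells by less than the fold required (-1.08). Iglc3, a constant region of the lambda light chain, stood at 1208, 529, 630 and 1004 CPM in pDC and at 709, 306, 299 and 518 CPM in B cells. Its level in pDC was above that in B cells in all 4 sets, though by less than the fold required (median 0.86), and it had 1 UMI in cDC1 and 19 UMIs in cDC2. Iglc2, a near-identical copy with which reads can be shared, went the other way, at 54.7 to 89.3 CPM in pDC and 712 to 1192 CPM in B cells. Blnk, the adaptor below the B cell receptor, stood at 313, 501, 499 and 286 CPM and was called higher in all 3 comparisons. The genes that define B cells were low in pDC. Cd79a stood at 0, 33.4, 37.0 and 37.9 CPM in pDC, at 5.87 to 19.2 CPM in cDC2 and 1544 to 2526 CPM in B cells, and Pax5 had 9 UMIs and Cr2 0 UMIs in all members.

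The kappa light chain and IgA genes differed widely between the sets. They had a UMI in many members, Igkc in 771 and Igha in 602. Igkc stood at 1011, 1185, 12458 and 1025 CPM in pDC of sets 1 to 4, with set 3 far above the rest. In that set 1 cell held 2961 of 5719 Igkc UMIs, and the top 5% of cells (15 cells) held 84.1%, whereas in set 4 the top 5% held 20.4%. Without those top cells in each set the level was 744, 848, 2213 and 885 CPM. The cDC2, from which no cells were left out, stood at 387, 755, 1947 and 713 CPM. With all members, the order of the sets was the same in pDC and cDC2. Without the top cells of pDC, sets 2 and 4, which differed little, changed places. Igha, the constant region of IgA, stood at 122, 620, 10319 and 277 CPM and Jchain, which joins IgA and IgM units, at 27.7, 252, 2370 and 111 CPM, both highest in set 3 where single cells held 1637 of 4737 and 458 of 1088 UMIs. The part of plasma cell RNA in these values was not tested. The summed level of 10 plasma cell markers was 836, 1938, 13815 and 1147 CPM in pDC and 241, 1019, 2361 and 394 CPM in cDC2, highest in set 3 in both.

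**Figure D5:**
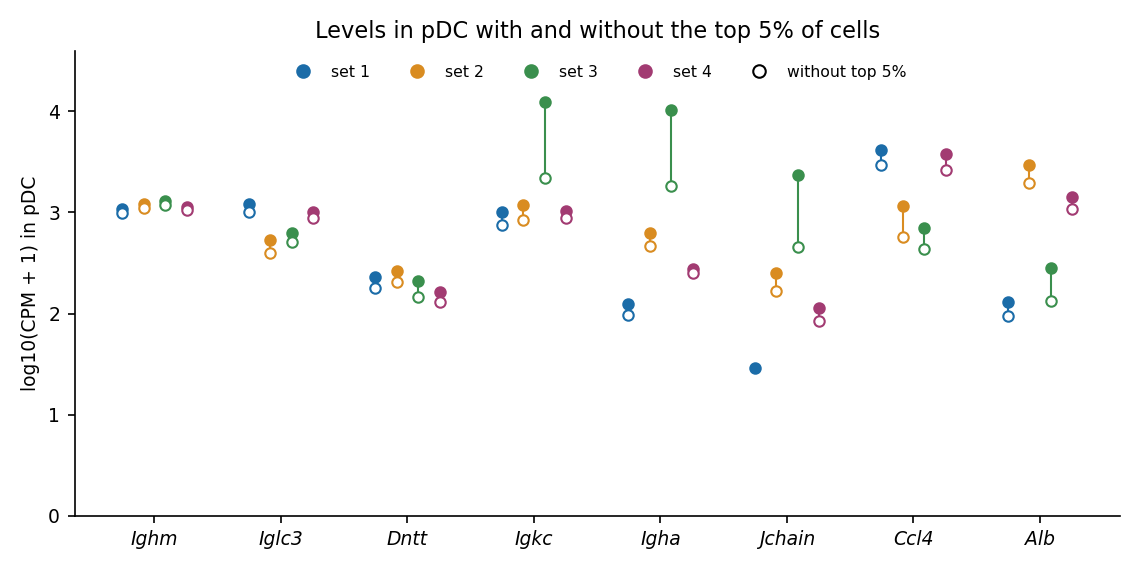
Levels of 8 genes in pDC of each barcode set as log10(CPM + 1), from all members (filled) and without the 5% of members with the most UMIs of that gene (open, drawn where a set had at least 20 UMIs). Ighm, Iglc3 and Dntt move little, whereas Igkc of set 3 drops from 12458 to 2213 CPM.

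Ccl4, a chemokine that attracts T cells and monocytes, was the one gene of the chemokine list called higher against cDC2. Ccl4 stood at 4166, 1151, 704 and 3773 CPM in pDC, at 102 to 350 CPM in cDC1 of sets 2 to 4, 221 to 430 CPM in cDC2 and 66.7 to 328 CPM in B cells. It was called higher in all 3 comparisons, with median log2 ratios of 2.67, 2.37 and 3.77, and against cDC2 not with the median of all genes set to 0. Sets 1 and 4, the deeper ones, were high and sets 2 and 3 lower, a split seen in B cells too and not in cDC2. A UMI of Ccl4 was found in 537 of 874 pDC, and the top 5% of members held 33.9%, 54.1%, 42.7% and 34.9% of its UMIs in sets 1 to 4. After thinning to 1000 UMIs, Ccl4 was seen in 48.2% of pDC (44.7% to 51.7%), 17.1% of cDC2 and 5.42% of B cells, pooled over sets that differ in Ccl4. Ccl3, its neighbour in function, stood at 102, 39.5, 24.0 and 89.8 CPM and was not called.

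Among the receptors for chemokines, Ccr2, which draws cells to inflamed tissue, stood at 49.9, 97.2, 181 and 127 CPM and was called against B cells alone. Cxcr4, the receptor that keeps cells in bone marrow, stood at 47.1, 237, 288 and 84.0 CPM, with the same order of sets 2 and 3 above 1 and 4 in B cells (68.5, 359, 367 and 131 CPM). Cxcr4 was called in no comparison. Over the list, 3 of 18 genes were higher and 3 lower against cDC1 (9.77% and 3.64% of all genes). Against cDC2 1 of 21 was higher and 4 lower (6.35% and 4.44%). Against B cells 3 of 19 were higher and 5 lower (7.72% and 2.17%). Ccr7, which guides cells to lymph nodes, and Cxcr5, which guides them to follicles, were among the genes lower than in B cells.

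Of the cytokine and growth factor receptors, 6 of 19 were higher against cDC1 (9.77% of all genes). Against cDC2 4 of 23 were higher and 4 lower (6.35% and 4.44%). Against B cells 8 of 19 were higher and 1 lower (7.72% and 2.17%). Tyrobp, the adaptor DAP12 through which Siglech signals, stood at 6703, 3257, 3546 and 6311 CPM in pDC and at 1570 to 3163 CPM in cDC2. It was called higher in all 3 comparisons, the one against cDC2 being lost without the possible doublets and with the median of all genes set to 0. Il7r, the receptor for the lymphoid growth factor interleukin 7, stood at 219, 179, 124 and 182 CPM in pDC, and no set of another class compared came above 22.0 CPM. Csf2rb2, a beta chain for interleukin 3, and Tgfbr1, a receptor for TGF-beta, were higher in all 3 comparisons as well, that of Tgfbr1 against B cells not with the median of all genes set to 0. Flt3, the receptor for the growth factor of all dendritic cells, stood at 58.2, 155, 150 and 89.8 CPM. Its log2 ratios to cDC1 and cDC2 were -0.58 and -0.27, and it was called against B cells alone (3.04).

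Markers of dividing cells were rare in the members. Mki67, a marker of cycling cells, had 7 UMIs in 7 of the 874 cells (0.801%), and Top2a had 8 UMIs. Against cDC1, 10 of 19 genes were lower (3.64% of all genes), and against the other classes 2 passed the filter and neither was called. Among survival genes, Bcl2l11, the gene of the death inducer Bim, stood at 155, 890, 484 and 234 CPM and was higher than in cDC1 alone, and Bcl2a1b, a prosurvival gene with near-identical copies, was lower in all 3 comparisons. Heat shock genes gave 1 lower gene of 11 against cDC1 and 1 of 10 against cDC2 (Hspa1a in both), and 0 of 11 against B cells. Of all genes, 3.64%, 4.44% and 2.17% were lower in these comparisons.

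Genes of conventional and of transitional dendritic cells were checked because both can share pDC genes. Cst3, the protease inhibitor cystatin C, stood at 1437, 781, 895 and 1370 CPM in pDC, at 11613 to 20702 CPM in cDC1 of sets 2 to 4 and 2837 to 5529 CPM in cDC2. It was lower than in both, with median log2 ratios of -3.91 and -1.93. Klrd1, the gene of CD94, stood at 391, 222, 220 and 452 CPM and was higher than in cDC1 and B cells. Cd209a, whose sequence is close to that of the rule's Cd209d, stood at 111, 237, 220 and 203 CPM in pDC and chose the cDC2. Of the transitional genes, 5 of 13 were higher and 2 lower against cDC1 (9.77% and 3.64% of all genes). Against B cells 6 of 13 were higher and 0 lower (7.72% and 2.17%). Against cDC2 3 of 14 were higher and 8 lower (6.35% and 4.44%). The lower ones included S100a4, at 22.2, 27.3, 56.6 and 42.8 CPM in pDC and 909 to 1854 CPM in cDC2, and Crip1, at 947, 1033, 867 and 1403 CPM against 3476 to 5117 CPM. Axl, a receptor of transitional cells, had 34 UMIs in all members.

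Outside the lists, the genes farthest above all 3 classes were named by the smallest log2 ratio over sets and classes, among those at 100 CPM or more in pDC. First came Gm21762, a predicted protein-coding gene on chromosome 13 from 120214593 to 120215947, at 1235, 1027, 976 and 692 CPM in pDC and at most 33.1 CPM elsewhere. Klk1b27, a kallikrein close to Klk1 whose reads may be shared with it, stood at 233, 137, 139 and 201 CPM, and Sh3bgr, known from muscle, at 133, 158, 152 and 131 CPM. Lrp8, a receptor for reelin and apolipoprotein E, stood at 208, 395, 292 and 226 CPM with at most 14.4 CPM elsewhere. Atp2a1, the calcium pump of the muscle reticulum, stood at 141, 106, 142 and 191 CPM. Cd8b1, the beta chain of CD8, stood at 352, 106, 124 and 255 CPM, and Lefty1, a secreted inhibitor of the TGF-beta family, at 230, 112, 100 and 214 CPM. Each of these was above every set of cDC1, cDC2 and B cells, which the way they were chosen all but fixed. Of the 1403 genes at 100 CPM or more in pDC, rule genes left out, 118 (8.41%) were at least 2-fold above all 3 classes. The others of the first 15 were Tmem229b, Paqr5, Rpgrip1, Rell1, Mctp2, Tex2, Gm5547 and Nucb2. Cd8a, the alpha chain of CD8, stood at 125, 27.3, 34.9 and 47.8 CPM and was higher than in cDC2 and B cells, and set 1 was highest for both chains. The 128 UMIs of Cd8a lay in 66 members, and the top 5% of members held 82.8% of them. Without those cells the level over all sets was 10.0 CPM.

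At the other end, Dusp2, a phosphatase of activated leukocytes, was lowest against all 3 classes, at 5.54, 51.6, 39.2 and 31.3 CPM in pDC, 156 to 560 CPM in cDC1, 235 to 601 CPM in cDC2 and 127 to 316 CPM in B cells. The metallothionein Mt1, which binds zinc, stood at 30.5, 249, 124 and 165 CPM in pDC and at 1505 to 2771 CPM in cDC2. Cd52, a small surface glycoprotein of lymphocytes, stood at 917, 547, 658 and 965 CPM in pDC and at 2111 to 3329 CPM in cDC1. The other genes of this end were Nap1l1, Tob2, Cotl1, Kdm7a, Flna, AW112010 and Rps19. Of these 10 genes, Dusp2 alone was called lower in all 3 comparisons.

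RNA of genes that mark other cells was present in the pDC, and its part in the results was not tested. The 15 hepatocyte products summed to 2155, 12680, 1632 and 8642 CPM in pDC of sets 1 to 4 and to 974, 12258, 1380 and 6287 CPM in cDC2, with sets 2 and 4 above sets 1 and 3 in both, and to 2730 to 14485 CPM in B cells. Alb, the albumin gene, stood at 130, 2977, 283 and 1420 CPM in pDC, and was detected in 591 of 874 cells. Of the hepatocyte genes, 0 of 14 tested were called against cDC2 and 0 of 15 against B cells. Of all genes, 10.8% and 9.88% were called there in either direction. Against cDC1 1 of 14 was called (13.4% of all genes in either direction). This was Alb, which was higher, but not with the median of all genes set to 0. The 16 myeloid markers summed to 222 to 1086 CPM in pDC and 947 to 13998 CPM in cDC2, and Clec4f, held there by the rule, was the 1 marker at 0. The haemoglobin gene Hbb-bs stood at 14807, 343, 7295 and 6887 CPM, and in set 1 a single member held 3964 of its 5346 UMIs. Without the possible doublets 620 members remained, and no count of genes called against cDC1, cDC2 or B cells moved by over 1.5 times. Sets 2 and 3 shared 115 cell barcodes and sets 2 and 4 shared 109, 19 members had a barcode found in another set, and in no case were both cells members.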

How the data were processed

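Tumour tissue of 4 mice was profiled by droplet single-cell RNA sequencing. The deposited table holds, per its values, the natural log of 1 plus each gene's UMIs scaled to 10000 per cell, for 17813 genes and 24802 cells. The submitters' processing notes name CASAVA 1.8, Cell Ranger, Seurat and the build mm10 (GRCm38), with no role or order given. The whole UMI counts were recovered from the steps of the values: 100% of them came out whole within 0.001, 65920312 UMIs in all. Barcode sets held 2574, 6224, 4825 and 11179 cells. UMIs were summed per class and set, divided by the class total and given as CPM. Genes at 20 CPM or more in either class on average over sets were compared, where each class had at least 20 cells in a set. No test was run, since no label maps cells to samples, and the planned comparison of genotypes was not made. Gene positions were matched by symbol (17545 of 17813 genes), and promoter windows came from RefSeq. Genes were named by a rule: all rule genes, of each list up to 8 members highest in pDC and those called, and outside the lists the 15 highest and 10 lowest against cDC1, cDC2 and B cells together, with Zbtb17 and Mtdh. The members and the lists (25 lists, 485 genes) were chosen with earlier results of these data known. The comparison was run on counts simulated for both classes from the mean pDC profile, with known folds put into some genes. Those counts held no variation between cells and no difference in RNA of other cells. The simulation therefore says nothing about either. Plasma cells were also compared (1132 cells with Jchain and 1 of 3 further genes), but that class held high levels of hepatocyte RNA, so counts alone are given. Computations used Python 3.11.15, numpy 2.4.6, pandas 2.3.3, scipy 1.17.1 and matplotlib 3.10.9. Some genes measured in these cells are not reported here.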

Additional observations from a re-analysis of the deposited data

How the results depend on the processing

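Barcode sets were left out in turn, and CPM was computed under another filter, pseudocount, centring or rule. No paired analysis was possible because no label maps the cells to the numbered samples, so a replicate block was not run. The share of pDC was 3.15% with at least 3 of the 7 genes, 3.82% with no excluding genes, 4.86% among cells with at least 500 genes, 3.90% with each cell thinned to 1000 UMIs and 2.50% without possible doublets. With a filter of 100 CPM, fewer genes were tested, and the counts higher and lower were 281 and 112 against cDC1, 198 and 144 against cDC2, 257 and 60 against B cells, and 404 and 181 against plasma cells. With the median of all genes set to 0 they were 351 and 332 against cDC1, 216 higher against cDC2, 208 lower against B cells, and 404 and 653 against plasma cells. With a pseudocount of 1 CPM, 552 were higher against cDC2, 197 lower against B cells and 614 lower against plasma cells, and the cause of these moves was not tested. Leaving out 1 set gave 696 to 1005 higher and 254 to 301 lower against cDC1 (1005 without set 4), 416 to 465 and 282 to 289 against cDC2, 478 to 510 and 144 to 154 against B cells, and 755 to 870 and 368 to 670 against plasma cells (670 without set 1). Fewer sets make a call easier, since it asks for 2-fold in each. Against plasma cells 700 genes were higher and 354 lower of 6145 (11.4% and 5.76%), and with at least 2 of the 3 further genes, chosen after seeing the data, 1574 and 101. For named genes, 5049 values under an alternative kept their call and 112 lost it, and none changed direction. Leaving out a set, another filter and the pseudocount of 1 CPM cannot remove a call from a gene still tested. Their values were thus kept by construction. Of the other settings, the median of all genes set to 0 kept 372 and lost 43. The mean over cells kept 387 and lost 27, and leaving out possible doublets kept 392 and lost 20. Cells with at least 500 genes kept 402 and lost 12, and at least 3 of the 7 genes kept 407 and lost 6. Without members whose barcode is in another set, 411 were kept and 4 lost. Of the list medians, 671 values stayed within their spread over sets and 172 did not. Levels of genes with few UMIs, such as Tlr9 and Mki67, are limited by depth.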

Other observations

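Cdh5, the gene of the endothelial cadherin, was called higher in pDC than in cDC1, cDC2 and B cells. It stood at 116, 143, 105 and 143 CPM in pDC, at 0 to 43.5 CPM in any set of cDC1 and cDC2 and at 0.951 to 53.2 CPM in B cells. Its 311 UMIs lay in 210 of the 874 members, and the top 5% of members held 44.4% of them. Kdr, another gene of endothelial cells, had 188 UMIs in 69 members, with 86.7% in the top 5%. After thinning to 1000 UMIs, Cdh5 was seen in 11.4% of pDC (9.28% to 13.7%) and Kdr in 3.91%, and in B cells in 2.15% and 2.69%. The call of Cdh5 against B cells was lost without the possible doublets, a group chosen in part by Kdr. The 12 endothelial and stromal markers, Cdh5 among them, summed to 388, 386, 244 and 675 CPM in pDC, 167, 149, 67.3 and 308 CPM in cDC2 and 87.5, 320, 102 and 500 CPM in B cells, and Col1a1 was at 0 in pDC. Cdh5 was singled out after its values were seen, and the part of endothelial RNA was not tested.

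The 79 genes of ribosomal proteins, gathered after Rps19 had come out among the lowest genes, held 25.5%, 26.6%, 27.7% and 23.4% of the UMIs of pDC in sets 1 to 4. They held 34.5%, 35.2%, 31.6% and 33.1% in B cells, and 28.5%, 32.8%, 34.0% and 25.6% in cDC2. Of the 77 tested, 66 lay below cDC1, 56 below cDC2 and 59 below B cells in every set compared. Over all genes, 3676 of 5907, 3346 of 5718 and 3300 of 5727 kept the same direction, up or down, in every set. No ribosomal gene was called lower (3.64%, 4.44% and 2.17% of all genes). In each comparison 1 was called higher (9.77%, 6.35% and 7.72% of all genes). The median log2 ratios of the ribosomal genes were -0.41, -0.27 and -0.41, and those of all genes were above 0.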
